A study of Mus musculus with 44 samples.

Results

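The 10 genes described here form the core of the circadian clock and its direct output: Arntl (also named Bmal1), Clock, Npas2, Per1, Per2, Per3, Cry1, Nr1d1, Dbp and Ciart. They were chosen by name, with earlier results of these data known. They are 10 of the 35249 genes in the table of read counts, and all 10 passed the filter on low counts that 14862 genes passed. The counts came from RNA sequencing of mouse liver in 44 libraries that fall into 9 groups, 3 genotypes by 3 diets. The genotypes were wild type (WT), Ripk3-/- (Ripk3KO) and Mlkl-/- (MlklKO). Necroptosis is a lytic form of programmed cell death in which the kinase RIPK3 phosphorylates MLKL, whose oligomers then break open the plasma membrane, and the study asked how liver expression changes when that pathway is blocked. Feeding began at 2 months of age and lasted 6 months, either on normal chow, called control here, or on food lacking choline, in a low-fat (CD-LFD) or a high-fat (CD-HFD) form. WT groups held 6 libraries on each diet. Ripk3KO groups held 6 on control, 3 on CD-LFD and 4 on CD-HFD, and MlklKO groups held 6 on control, 4 on CD-LFD and 3 on CD-HFD. For neither knockout do the labels name a cell type, a promoter or how the allele was made. The labels give no time of day for the dissection, and no sex, litter or batch. The part of these in the differences between groups was not tested. The labels also do not say that each library came from a separate animal, so p-values measure the spread between these libraries.

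The clock is a transcriptional feedback loop that runs in almost every cell and is strong in hepatocytes. ARNTL pairs with CLOCK or its relative NPAS2, and the pair switches on genes that carry E-boxes, among them Per1, Per2, Per3, Cry1, Nr1d1, Dbp and Ciart. PER and CRY proteins then return to the nucleus and inhibit the pair, while REV-ERBα, the product of Nr1d1, represses Arntl, Npas2, Clock and Cry1 through ROR response elements. Each of these transcripts therefore rises and falls over the day, and transcripts of Arntl and Npas2 peak at a different time from those of Dbp, Ciart and the Per genes. In the liver the loop drives daily rhythms of lipid, bile acid and xenobiotic metabolism, and feeding times can shift it.

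Promoter stretches that hold letter motifs of the loop are shown first. RefSeq promoter windows (build GRCm38.p6, 250 bases before to 50 after a start) were listed for 9 of the 10 members, 13 windows in all, and Per2 was the exception. Each window was searched on both strands for the E-box CACGTG, which 7.15% of all 32851 listed windows hold, and for the D-box TTATGTAA or TTACGTAA, which 1.06% hold. The core of the ROR response element was searched as TAGGTCA or TGGGTCA, and 6.45% of windows hold it. E-boxes were found for 3 members, Ciart, Per1 and Cry1, D-boxes for Per3 and a ROR element core for Arntl. Capitals mark the matches in the stretches below, each written 5′ to 3′ on the strand of its gene, and a match describes the letters only.
Ciart, 3 E-boxes at 116, 58 and 44 bases before the start, minus strand, chr3:95882229-95882378: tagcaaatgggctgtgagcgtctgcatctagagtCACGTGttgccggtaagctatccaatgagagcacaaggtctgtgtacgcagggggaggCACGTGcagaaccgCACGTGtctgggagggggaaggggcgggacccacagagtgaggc
Per1, 1 E-box at 166 bases before the start, plus strand, chr11:69098763-69098810: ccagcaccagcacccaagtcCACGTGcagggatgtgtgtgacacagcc
Cry1, 1 E-box at 60 bases before the start, minus strand, chr10:85185087-85185134: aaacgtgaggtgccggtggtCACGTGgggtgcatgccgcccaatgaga
Per3, 2 D-boxes at 205 and 158 bases before the start, minus strand, chr4:151044796-151044890: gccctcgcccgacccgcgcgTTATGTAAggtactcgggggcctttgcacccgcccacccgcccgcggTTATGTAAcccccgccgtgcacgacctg
Arntl, ROR element core at 31 bases after the start, plus strand, chr7:113207532-113207560: ggcagaaagTAGGTCAgggacggaggtgc
The D-box is the letter sequence that DBP binds, together with its relatives TEF and HLF and the repressor NFIL3, and the ROR element is the one that REV-ERBα and the ROR proteins share.

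The deepest library, WT CD-LFD replicate 3, held 88204703 counts, and the totals of the other 43 lay between 2476268 and 12471844. Levels below are CPM, the count of a gene relative to its library's total after scaling by TMM, edgeR's between-library factor. The targeted genes followed the genotype labels, except that 2 knockout libraries held more of the targeted transcript than the rest of their groups. Ripk3 reached 1.26 CPM in Ripk3KO control replicate 5, against 0 to 0.326 CPM in the other Ripk3KO libraries and 0.511 to 4.89 CPM in WT. Mlkl reached 12.5 CPM in MlklKO CD-HFD replicate 1, within the 2.28 to 17.7 CPM of WT. Leaving out both libraries lowered the members called in MlklKO livers on CD-HFD against control from 2 to 1. In MlklKO against WT on CD-HFD, neither Ripk3 nor Mlkl was called by edgeR, in a comparison that called 0% of all genes. Hepatocyte markers (8 of 8 detected) summed to between 57247 and 157266 CPM in WT livers, the highest sum of the 8 marker lists.

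Per length of transcript, the 10 genes spanned a wide range of levels. Dbp, a transcription factor that carries clock time into metabolism, stood highest at 36.6 ± 21.2 CPM per kilobase (SD, n = 44 libraries of all groups). Nr1d1 followed at 27.4 ± 13.4, then Per1 at 14.2 ± 5.22, Ciart at 13.0 ± 10.1 and Per2 at 10.3 ± 5.44. Per3 at 3.91 ± 2.10, Cry1 at 2.83 ± 1.40 and Clock at 2.16 ± 0.889 were lower. Arntl was lower again at 0.723 ± 0.905 CPM per kilobase and Npas2 at 0.379 ± 0.505. Between neighbours in that order, the means differed by more than either SD only for Per2 and Per3 and for Clock and Arntl. At these depths Arntl was counted by 2 to 242 reads in any library other than WT CD-LFD replicate 3, which held 1640, so its lowest levels rest on few reads.

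Several members varied widely between libraries of the same group. The within-group SD of log2 CPM was 1.11 for Ciart, 1.0 for Dbp and 0.96 for Arntl, against a median of 0.35 over the 11784 genes with a mean log2 CPM of at least 1, which were not matched on level. Npas2, with an SD of 1.16, lay below that level and rests on few reads. By that measure Ciart ranked 55th, Dbp 86th and Arntl 124th of those genes. Per3 had an SD of 0.79, Nr1d1 0.62, Per2 0.54 and Cry1 0.51. Per1 at 0.41 and Clock at 0.39 were close to the median gene. WT control was the most variable group for 8 members, all but Cry1 and Nr1d1, with an SD of 2.31 for Dbp, 2.31 for Ciart, 2.24 for Npas2, 2.06 for Arntl, 1.69 for Per3, 0.88 for Per2, 0.73 for Per1 and 0.72 for Clock. These spreads enter every comparison with that group.

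**Figure D1:**
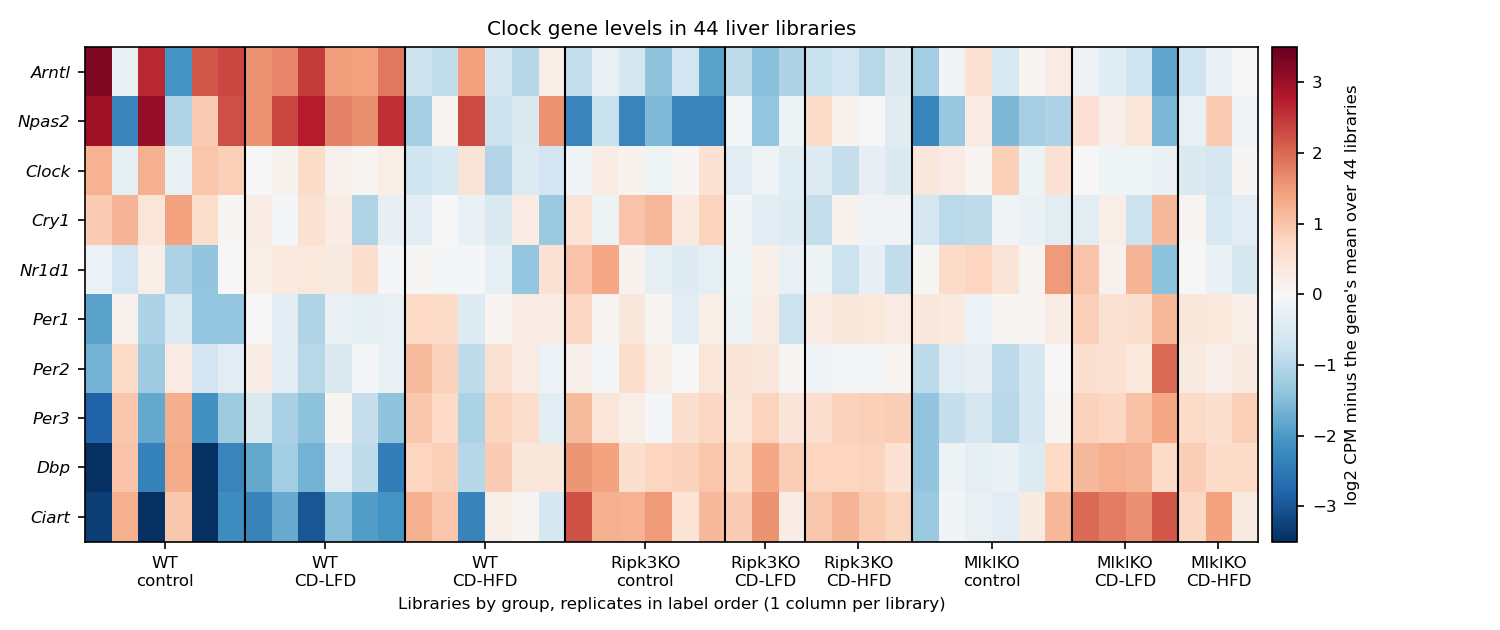
Level of each clock gene (rows) in every library (columns, grouped by genotype and diet), as log2 CPM minus the gene's mean over the 44 libraries; colours end at -3.5 and 3.5, and the lowest Dbp and Ciart values of WT control go past that end. Arntl is high, and Dbp and Ciart low, in WT control replicates 1, 3, 5 and 6, in all 6 WT CD-LFD libraries and in WT CD-HFD replicate 3. Npas2 is mostly high there too, but its lowest of these (1.83 CPM, WT control replicate 5) is below the highest library with low Arntl (3.10 CPM).

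Arntl, the obligate partner of both CLOCK and NPAS2, divided the libraries into separate sets. Its level was 0.615 to 4.77 CPM in 33 libraries and 9.03 to 33.4 CPM in 11, with a gap of 0.92 on the log2 scale between them and a next widest gap of 0.33 among cuts that leave at least 5 libraries on each side. WT control livers measured 33.4, 2.69, 21.5, 0.615, 15.5 and 17.4 CPM in replicates 1 to 6, so that this group held both its highest and its lowest library of the whole series. All 6 WT CD-LFD livers were in the upper set, from 9.03 to 18.8 CPM with a median of 10.7. On CD-HFD the WT livers ran from 1.53 to 9.16 CPM with a median of 2.03, and replicate 3 alone was in the upper set. None of the 26 knockout libraries was in it. Ripk3KO livers measured 0.722 to 2.72 CPM on control (median 1.85), 1.67, 1.05 and 1.44 CPM on CD-LFD, and 1.83, 1.97, 1.57 and 2.22 CPM on CD-HFD. MlklKO livers measured 1.29 to 4.77 CPM on control (median 3.25), 2.88, 2.38, 1.92 and 0.745 CPM on CD-LFD, and 1.92, 2.74 and 3.33 CPM on CD-HFD. Ordered by mean, WT control (15.2 ± 12.2 CPM, SD) and WT CD-LFD (11.9 ± 3.62) came first and did not differ beyond their spread. WT CD-LFD and WT CD-HFD (3.38 ± 2.95) did. The remaining groups followed in the order MlklKO control, CD-HFD and CD-LFD and then Ripk3KO CD-HFD, control and CD-LFD, from 3.13 down to 1.39 CPM, and no neighbours among them differed beyond their spread.

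Npas2, which stands in for CLOCK as a partner of ARNTL, had nearly the same distribution at a lower level. WT CD-LFD livers held 3.07 to 7.21 CPM (median 4.47) and WT CD-HFD livers 0.271 to 5.24 CPM (median 0.769). The 6 WT control livers held 8.56, 0, 9.19, 0.307, 1.83 and 5.13 CPM, low in the same replicates 2 and 4 as Arntl; the 0 of replicate 2 allows up to 0.732 CPM. In Ripk3KO control livers Npas2 was at 0 to 2 reads in every library, below a floor of 0.721 CPM, the worth of 3 counts in the smallest library of that group. Such floors describe counting error alone, because PCR copies of a molecule are counted as separate reads. The other knockout groups ranged from 0 to 1.83 CPM. Clock itself, which is expressed more evenly through the day, varied 4.92-fold from its lowest to its highest library. It was highest in WT control at 22.2 to 66.1 CPM (median 52.2), with replicates 2 (22.2) and 4 (23.1) again at the bottom, and low in WT CD-HFD at 13.4 to 37.5 CPM (median 18.2). By mean, Ripk3KO CD-HFD was the lowest group (19.5 ± 2.90 CPM), followed upward by WT CD-HFD (20.7 ± 8.55). Clock was at 24.3 to 49.7 CPM in MlklKO control, 25.0 to 39.2 CPM in Ripk3KO control and 15.7 to 28.4 CPM in the 4 knockout groups on choline-deficient diets.

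Among the repressors, Nr1d1 did not follow the division in Arntl. It was at 28.8 to 114 CPM in the 11 libraries with high Arntl and at 27.7 to 212 CPM in the other 33. MlklKO control livers had the highest mean, 120 ± 49.5 CPM (77.1 to 212, median 112), and Ripk3KO CD-HFD livers the lowest, with 67.3, 44.7, 61.9 and 41.6 CPM. Cry1, the longest-lasting repressor of the ARNTL-CLOCK pair, was highest in WT control (8.80 to 23.1 CPM, median 14.6) and Ripk3KO control (7.54 to 19.2 CPM, median 13.5). MlklKO control livers held only 4.34 to 7.88 CPM of Cry1 (median 6.01), below every WT control liver. Ripk3KO livers on CD-LFD held 7.92, 6.53 and 6.12 CPM. WT livers held 3.96 to 12.4 CPM on CD-LFD (median 9.17) and 3.30 to 10.5 CPM on CD-HFD (median 6.85).

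The 3 Per genes, which encode the partners of CRY in the repressive complex, differed among themselves in how far they moved. Per1 ran from 19.9 CPM in WT control replicate 1 to 167 CPM in MlklKO CD-LFD replicate 4, with WT control lowest as a group (19.9 to 82.3 CPM, median 31.9). MlklKO CD-LFD was highest, at 131, 106, 110 and 167 CPM, and its mean of 129 ± 27.9 CPM stood beyond the spread of the next group. Per2 was at 29.0 to 54.6 CPM in MlklKO control (median 39.0) and at 81.0, 79.9, 70.4 and 217 CPM in MlklKO CD-LFD. Per3 was at 11.6 to 32.5 CPM in MlklKO control (median 18.9) and at 54.2, 50.5, 63.0 and 78.8 CPM in MlklKO CD-LFD, with no overlap. In WT control Per3 was at 4.14, 59.4, 8.68, 75.0, 6.85 and 13.0 CPM, high where Arntl was low. MlklKO CD-LFD replicate 4 had the highest Per1, Per2 and Per3 of all 44 libraries together with the lowest Nr1d1 (27.7 CPM).

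Dbp and Ciart, the members nearest to clock output, were lower in the libraries with high Arntl. Ciart encodes a repressor that acts on the ARNTL-CLOCK pair, and its promoter holds the 3 E-boxes printed above. It was at 1.02 to 6.35 CPM in the 11 libraries with high Arntl and at 7.33 to 86.9 CPM in the other 33, and was the sole other member whose levels in these sets did not overlap. Dbp was at 4.97 to 61.5 CPM against 30.8 to 235 CPM, and 2 of the 33 libraries fell within the range of the 11. In WT control, Dbp measured 4.97, 161, 15.7, 198, 5.48 and 16.1 CPM, so that replicates 2 and 4 stood far above the other 4. MlklKO control livers had low Arntl and also an intermediate Dbp of 30.8 to 132 CPM (median 66.1), below the 120 to 235 CPM of Ripk3KO control in all but replicate 6. These sets are described without a test, since they were drawn from the levels themselves. All 11 libraries with high Arntl were WT, and the share of all genes separate between the sets was not determined. The r of Arntl with Ciart (deviations from group means) was -0.72 over all 44 libraries and 0.05 over the 32 of the 7 groups that the gap in Arntl does not split.

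**Figure D2:**
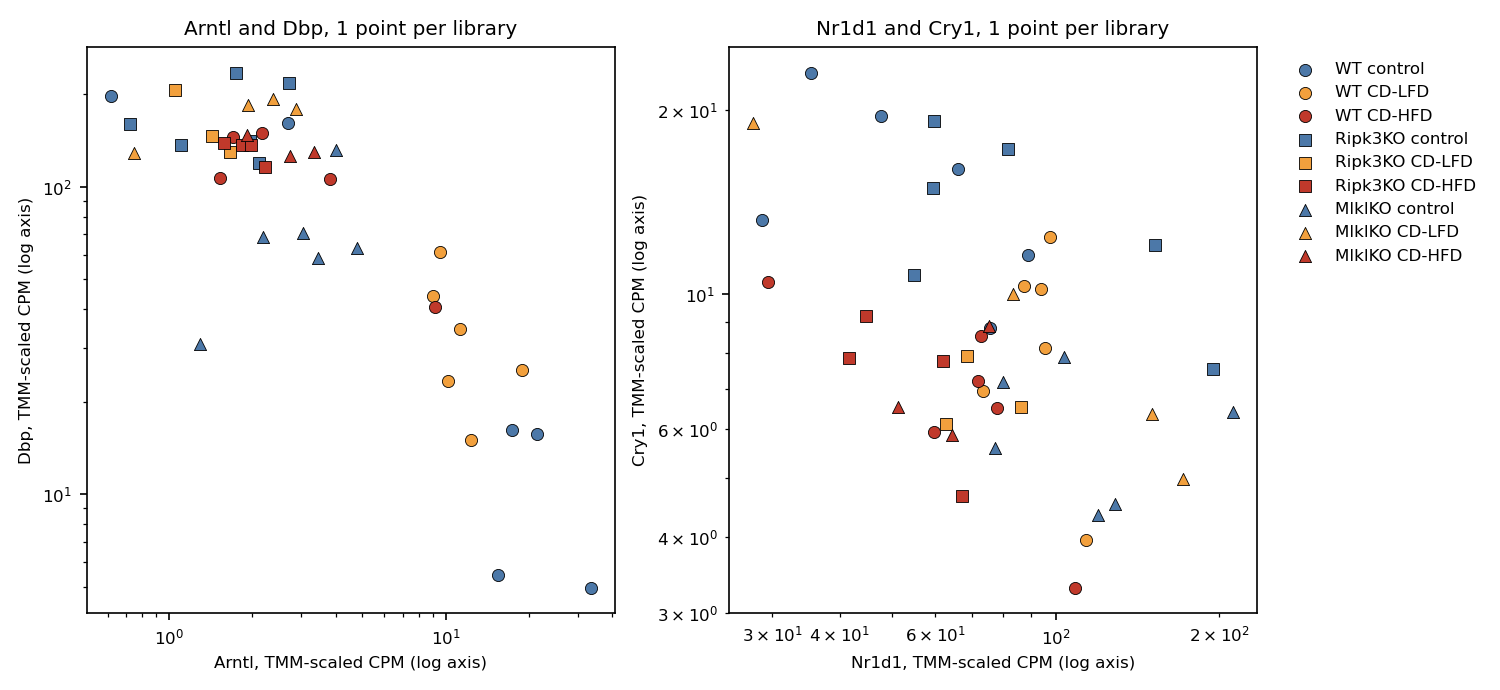
Arntl against Dbp (left) and Nr1d1 against Cry1 (right), in TMM-scaled CPM on log axes, 1 point per library with shape for genotype and colour for diet. On the left, 11 WT libraries lie at 9.03 CPM of Arntl or more with Dbp at 61.5 CPM or less, and MlklKO control replicates 2 to 5 have Dbp at 58.5 to 71.0 CPM, lower than the other knockout groups; on the right the points are spread with no such gap.

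**Figure D3:**
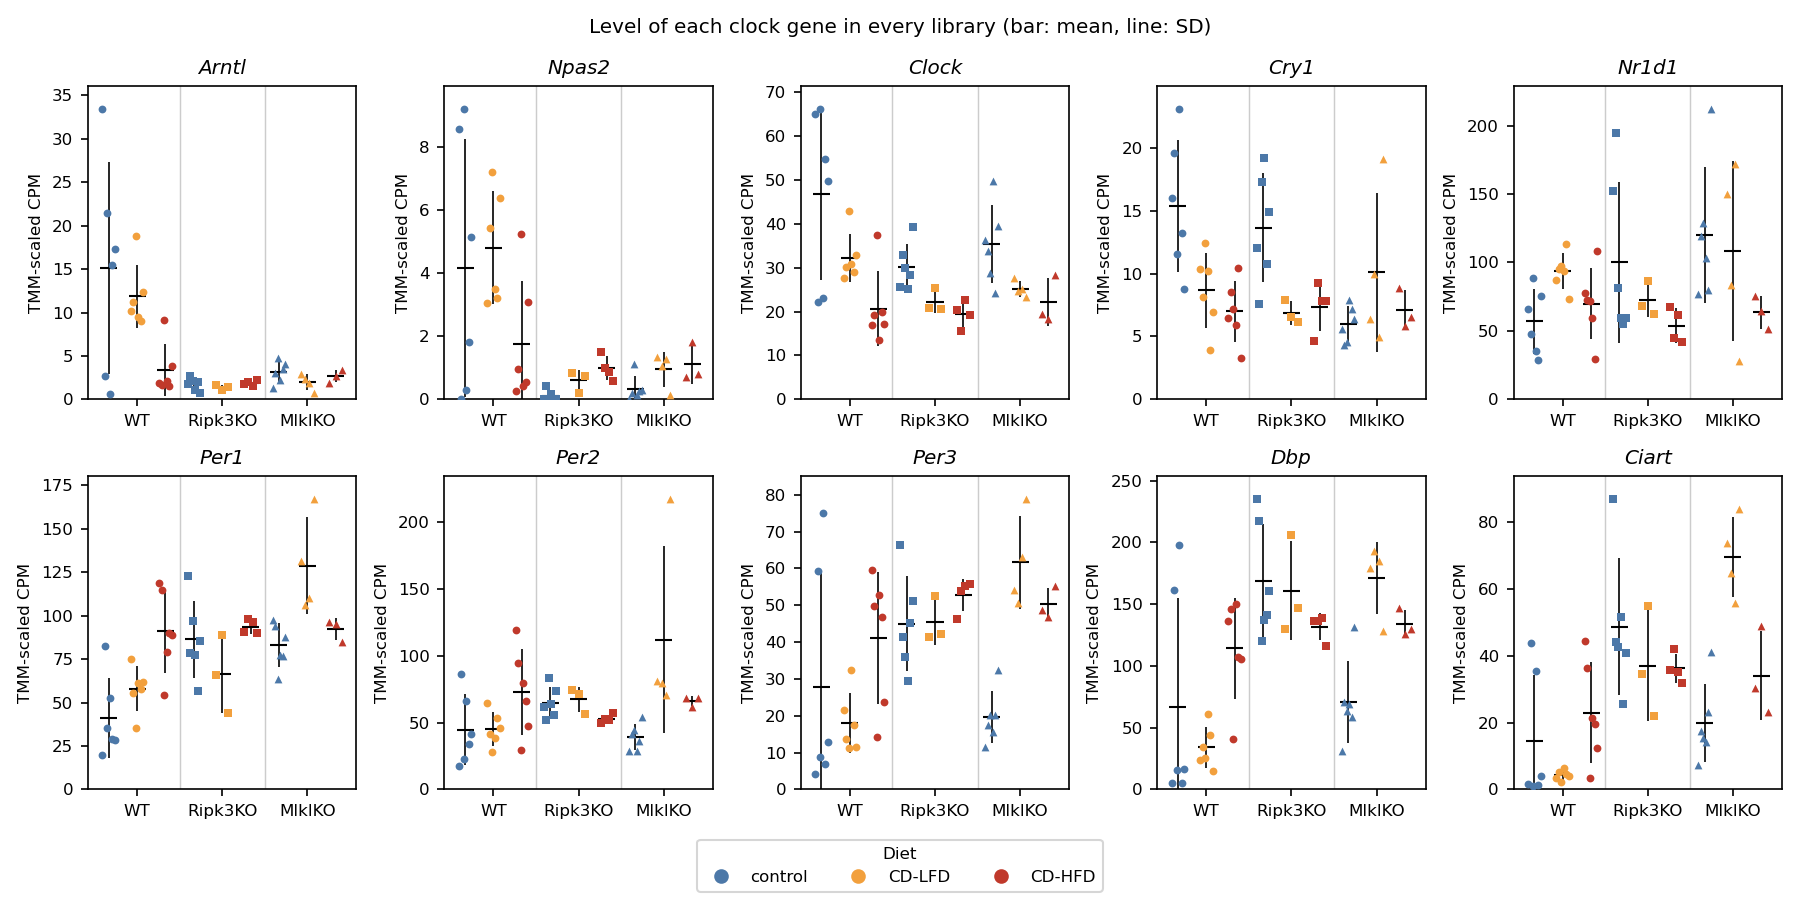
TMM-scaled CPM of each clock gene by genotype and diet, 1 point per library, with the mean as a bar and 1 SD as a line, cut at 0. WT control is split for Arntl, Npas2, Clock, Per3, Dbp and Ciart, and the knockout groups on CD-HFD lie close together.

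In WT livers on CD-HFD, Arntl, Clock and Cry1 were lower and Per1 and Per2 higher than on control. Arntl fell by 2.20 ± 0.44 (log2 change ± SE; adjusted p = 6.92e-05, edgeR quasi-likelihood, Benjamini-Hochberg over all genes). Clock fell by 1.18 ± 0.22 (adjusted p = 2.19e-05) and Cry1 by 1.13 ± 0.28 (adjusted p = 0.000998). Per1 rose by 1.14 ± 0.23 (adjusted p = 7.22e-05) and Per2 by 0.71 ± 0.29 (adjusted p = 0.0428). These 5 of 10 members were called in a comparison that called 47.7% of all tested genes (23.5% higher and 24.1% lower), so that their share is at the background. No member's libraries were separate between the groups, where 20.9% of all genes were separate. Npas2, at -1.34 ± 0.57, missed the threshold (adjusted p = 0.0512), as did Dbp at 0.78 ± 0.50 (adjusted p = 0.203). Arntl, Clock, Per1 and Cry1 were called without any 1 library, whereas Per2 was lost without any 1 of 7 (WT control replicates 1, 3, 5 and 6 and WT CD-HFD replicates 1, 2 and 4; adjusted p 0.0622 to 0.157) and in a fit restricted to WT control and WT CD-HFD (0.142). Without WT control replicate 2 the count was 8 members, 4 higher and 4 lower, and it was 8 with the same split without replicate 4. With 2 members higher and 3 lower in TMM scaling, library size on its own gave 5 and 3; that scaling moved the median of all genes from -0.07 to 0.43 in this comparison.

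In WT livers on CD-LFD, Cry1 was lower than on control by 0.81 ± 0.28 (adjusted p = 0.0270, edgeR) and Ciart by 1.80 ± 0.60 (adjusted p = 0.0223). They were 2 of 10 members where 27.7% of all genes were called (13.7% higher and 14% lower). Ciart was at 1.02 to 43.7 CPM on control and 2.10 to 6.35 CPM on CD-LFD, and the WT control libraries at 43.7 (replicate 2) and 35.4 CPM (replicate 4) carried the difference of means. Without replicate 2 the change was -0.98 (adjusted p = 0.252), and Ciart was also lost without WT control replicate 4 or WT CD-LFD replicate 3. Cry1 was lost without WT control replicate 2 or 4 or WT CD-LFD replicate 5 or 6 (adjusted p 0.0624 to 0.0907). Scaled by library size alone, neither was called, and 2 others (Per1 and Nr1d1) were called higher, so that the split of 0 higher and 2 lower turned to 2 and 0. Fitting only the compared groups left 0 calls.

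Between the choline-deficient diets, WT livers on CD-HFD and on CD-LFD differed for 6 of 10 members, against 21.1% of all genes (13.7% higher and 7.4% lower). Dbp was 1.76 ± 0.51 higher on CD-HFD (log2; adjusted p = 0.0102, edgeR) and Ciart 2.48 ± 0.58 higher (adjusted p = 0.00141). Per1 (0.66 ± 0.23) and Per3 (1.21 ± 0.41) were higher too. Arntl fell by 1.83 ± 0.43 (adjusted p = 0.00163) and Clock by 0.65 ± 0.22. The libraries of the diets overlapped for every member, where 11.3% of all genes were separate. WT CD-HFD replicate 3 lay within the CD-LFD range for several members (Arntl 9.16 CPM, Dbp 40.7 CPM, Ciart 3.49 CPM). Without that library the count was 8. Arntl, Dbp and Ciart were called without any 1 library. Clock was lost without WT CD-LFD replicate 3 or WT CD-HFD replicate 1, 2, 4 or 6, Per1 without WT CD-LFD replicate 2 or 3 or WT CD-HFD replicate 1 or 2, and Per3 without WT CD-LFD replicate 2, 3 or 6 or WT CD-HFD replicate 1, 2 or 4 (adjusted p 0.0512 to 0.0941). Only 3 members were called without WT CD-LFD replicate 3, and 3 without WT CD-HFD replicate 1 or 2.

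Markers of other liver cells moved with the diets. In WT livers the 8 macrophage markers summed to 130 to 188 CPM on control, 197 to 341 CPM on CD-LFD and 932 to 2540 CPM on CD-HFD. The 7 stellate and fibroblast markers summed to 60.7 to 114, 161 to 370 and 468 to 1062 CPM, and the 4 cholangiocyte markers to 15.4 to 34.7, 21.5 to 53.7 and 78.7 to 117 CPM. The 6 T and NK cell markers summed to 2.20 to 5.02, 3.84 to 14.6 and 11.5 to 29.8 CPM. The 8 hepatocyte markers summed to 89499 to 157266 CPM on control, 62577 to 107800 CPM on CD-LFD and 57247 to 92572 CPM on CD-HFD, and all 8 were called lower on CD-HFD. Endothelial markers (5) summed to 118 to 163, 93.4 to 105 and 57.1 to 86.8 CPM. Over the WT livers the 4 neutrophil markers summed to 0.307 to 8.98 CPM, with Ly6g at 0 in WT control and WT CD-HFD, and the 4 B and plasma cell markers at 3.25 to 14.9 CPM. The part of cell composition in the diet results was not tested, and in whole tissue fewer cells of a type and less RNA per cell cannot be told apart.

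Within the Ripk3KO livers, CD-HFD was called for 4 of 10 members where 46.3% of all genes were called (24.6% higher and 21.7% lower). Clock fell by 0.63 ± 0.25 (adjusted p = 0.0348, edgeR), Cry1 by 0.87 ± 0.31 (adjusted p = 0.0206) and Nr1d1 by 0.90 ± 0.37 (adjusted p = 0.0448). Npas2 measured 1.5, 0.987, 0.874 and 0.597 CPM, a mean at least 1.37-fold higher than the floor of the control group (adjusted p = 0.0205). Arntl, already at 1.73 ± 0.721 CPM on control, showed a difference of 0.13 ± 0.59 (adjusted p = 0.880). Observed levels did not overlap for Clock and Npas2, 2 of 10 where 36.4% of all genes were separate. For Npas2 this rests on few reads, since CD-HFD replicate 5 (0.597 CPM) is itself below the floor of the control group. Clock was lost without Ripk3KO control replicate 2 or 6 or CD-HFD replicate 1, 2 or 5, Nr1d1 without control replicate 1 or 2 or CD-HFD replicate 2, 3 or 5, and Cry1 without control replicate 4 or CD-HFD replicate 1 (adjusted p 0.0533 to 0.176). The count was 2 without control replicate 2 or CD-HFD replicate 1, 2 or 5. With 1 member higher and 3 lower in TMM scaling, RLE size factors gave 1 and 1, and library size alone gave 2 and 0, with a median of all genes of 0.49 against -0.05. On CD-LFD only Cry1 was called (-1.0 ± 0.36, adjusted p = 0.0373), 1 of 10 against 24.1% of genes (14% higher and 10.1% lower), and it was lost without control replicate 3, 4 or 6 or any 1 of the 3 CD-LFD libraries, where the count was 0 (adjusted p 0.0558 to 0.171). Between CD-HFD and CD-LFD, 0 members were called by edgeR, against 8.83% of genes (5.75% higher and 3.08% lower), with 0 at an unadjusted p under 0.05 and 0 by DESeq2. Macrophage markers summed to 52.8 to 280 CPM on control, 257 to 391 CPM on CD-LFD and 1298 to 1823 CPM on CD-HFD in these livers. Hepatocyte markers summed to 107934 to 149981 CPM on control and 62417 to 89576 CPM on CD-HFD, without overlap, and 7 of 8 were called lower. Stellate and fibroblast markers summed to 45.2 to 74.1 and 609 to 725 CPM, and cholangiocyte markers to 9.22 to 15.2 and 59.8 to 119 CPM. On CD-HFD, 5 of 6 T and NK cell and 2 of 3 tested B and plasma cell markers were called higher and 3 of 5 endothelial markers lower. Called higher on CD-LFD were 5 of 8 macrophage, 5 of 7 stellate and fibroblast, 4 of 4 cholangiocyte, 4 of 6 T and NK cell and 2 of 3 tested B and plasma cell markers. On that diet 2 of 8 hepatocyte markers were lower, and of 5 endothelial markers 1 was higher and 2 lower. The part of these cells was not tested.

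In MlklKO livers the 3 Per genes and Ciart were higher on CD-LFD than on control, and Cry1 and Nr1d1 were not called. Per2 rose by 1.51 ± 0.32 (adjusted p = 0.000344, edgeR), Per3 by 1.64 ± 0.44 (adjusted p = 0.00386), Ciart by 1.81 ± 0.56 (adjusted p = 0.0110) and Per1 by 0.63 ± 0.25 (adjusted p = 0.0399). Ciart went from 7.33 to 41.2 CPM on control (median 16.4) to 73.8, 64.8, 55.8 and 84.0 CPM. The 4 called members were the ones separate between the groups, where 25.9% of all genes were separate, and they are 4 of 10 where 37.9% of all genes were called (19.7% higher and 18.3% lower). Per2, Per3 and Ciart were called without any 1 library. The Per2 change fell to 0.97 without CD-LFD replicate 4 (adjusted p = 0.0163). Per1 was lost without control replicate 3, 4 or 5 or CD-LFD replicate 1 or 4 (adjusted p 0.0599 to 0.160). Dbp, at 1.28 ± 0.54, missed the threshold (adjusted p = 0.0596). Markers of other cells moved too, with 6 of 8 macrophage, 5 of 6 T and NK cell, 3 of 7 stellate and fibroblast and 2 of 3 tested B and plasma cell markers called higher. Lower were 4 of 5 endothelial and 2 of 2 tested neutrophil markers. Of the 8 hepatocyte markers 1 was called higher and 3 lower, while their sum was 104526 to 122956 CPM on control and 123284 to 131678 CPM on CD-LFD. The part of these cells was not tested. On CD-HFD, Per3 rose by 1.35 ± 0.48 (adjusted p = 0.0194) and Clock fell by 0.68 ± 0.27 (adjusted p = 0.0407), 2 of 10 members against 45.2% of genes (24.9% higher and 20.3% lower). On CD-HFD 7 of 8 macrophage, 6 of 7 stellate and fibroblast, 5 of 6 T and NK cell, 4 of 4 cholangiocyte and 2 of 3 tested B and plasma cell markers were called higher, and 4 of 8 hepatocyte and 1 of 5 endothelial markers lower. Stellate and fibroblast markers summed to 680 to 1103 CPM against 59.0 to 119 CPM on control, macrophage markers to 1386 to 2351 CPM against 77.8 to 193, and hepatocyte markers to 69344 to 92275 CPM, below every control library. The part of these cells was not tested. Clock was lost without control replicate 1, 4 or 6 or CD-HFD replicate 1 or 2, and Per3 without CD-HFD replicate 4 (adjusted p 0.0533 to 0.126), so that 1 member was called without control replicate 4 or any 1 of the 3 CD-HFD libraries. The split of 1 higher and 1 lower was 1 and 0 with RLE size factors and 4 and 0 with library size alone. Between CD-HFD and CD-LFD edgeR called 0 members, against 23.7% of genes (14.6% higher and 9.14% lower), with 0 at an unadjusted p under 0.05 and 0 by DESeq2.

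**Figure D4:**
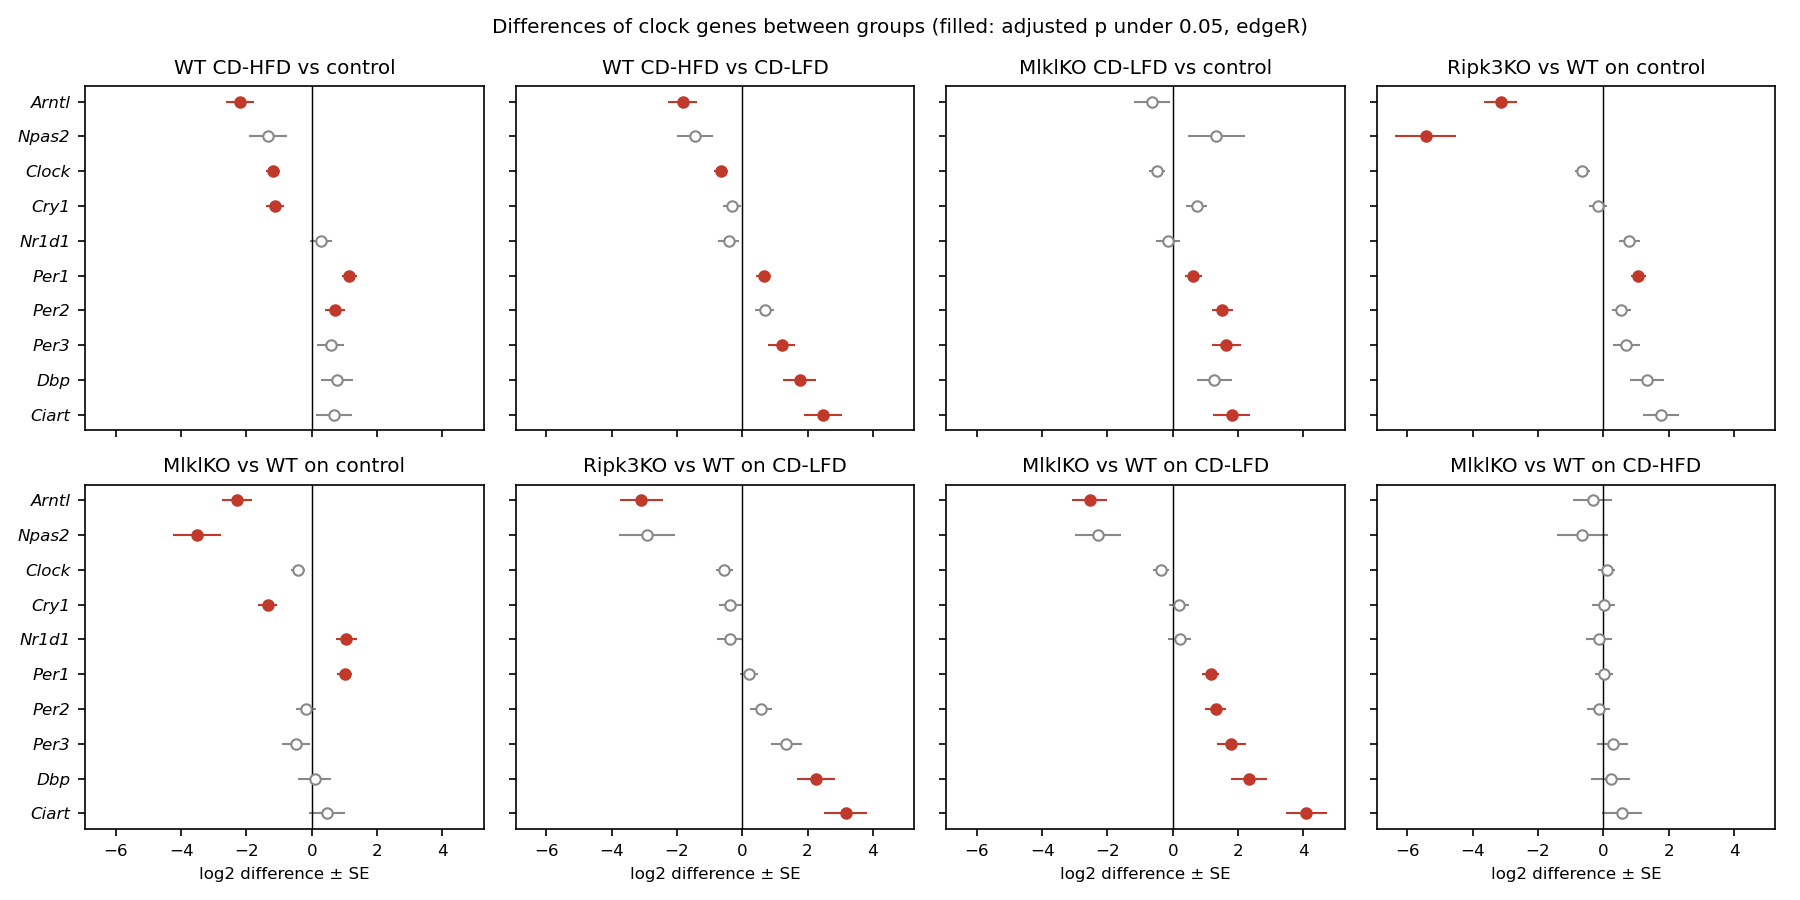
Log2 difference ± SE of each clock gene in 8 of the 19 comparisons; filled red points have an adjusted p under 0.05 (edgeR). Arntl lies below 0 and is called in the first 2 WT diet panels and in all 4 knockout comparisons on control and CD-LFD, while the last panel, MlklKO against WT on CD-HFD, has no called member.

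On the control diet, both knockouts had lower Arntl and Npas2 and higher Per1 than WT. In Ripk3KO, the log2 difference of Arntl was -3.15 ± 0.50 (adjusted p = 7.82e-05, edgeR), and Npas2 was at least 5.78-fold lower than the WT mean of 4.17 CPM (adjusted p = 0.000292). Per1 was 1.07 ± 0.23 higher (adjusted p = 0.00388), at 56.9 to 123 CPM (median 82.0). The 3 called members stand against 4.47% of all genes (2.25% higher and 2.23% lower). Ciart, at 1.77 ± 0.55, was just outside the threshold (adjusted p = 0.0525). All 3 calls held without any 1 library, but Per1 was lost when only the compared groups were fitted (adjusted p = 0.159) and without WT control replicates 5 and 6 together (0.0532). Npas2 did not pass the count filter when that was applied to the compared groups alone, here and in its other called comparisons (MlklKO against WT on control and Ripk3KO CD-HFD against control), so that such a fit gives no value for it. The count rose to 6 without WT control replicate 2 and to 7 without WT control replicate 4, with Dbp and Ciart among the added members in both cases. In MlklKO, Arntl differed by -2.28 ± 0.46 (adjusted p = 0.000254) and Npas2 by -3.51 ± 0.73 (adjusted p = 0.000390), and Per1 was 1.01 ± 0.23 higher (adjusted p = 0.00117). Cry1 (-1.35 ± 0.29, adjusted p = 0.000626) was lower and Nr1d1 (1.06 ± 0.33, adjusted p = 0.0142) higher, making 5 of 10 members against 27.1% of genes (13% higher and 14.1% lower). Cry1 was the only member whose MlklKO and WT libraries were separate, 1 of 10 where 4.95% of all genes were. Nr1d1 was lost without MlklKO control replicate 6 (adjusted p = 0.0553). Arntl overlapped in both comparisons because WT control replicates 2 and 4 lay at the level of the knockouts. Both comparisons use the same 6 WT libraries. Of the cell markers, 1 of 8 hepatocyte markers (Hnf4a, higher) and none of the other 7 lists were called in Ripk3KO. In MlklKO the same hepatocyte marker was called higher, with 1 of 2 tested neutrophil, 1 of 7 stellate and fibroblast and 1 of 4 cholangiocyte markers. Of 5 endothelial markers 2 were higher and 1 lower, 2 of 3 tested B and plasma cell markers were lower, and 0 of 8 macrophage and 0 of 6 T and NK cell markers were called. The part of these cells was not tested.

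On CD-LFD the WT libraries were all in the set with high Arntl, and the knockouts stood apart from them. MlklKO livers differed for 6 of 10 members where 2.56% of all genes were called (1.64% higher and 0.929% lower). Ciart was 4.09 ± 0.62 higher (log2; adjusted p = 9.09e-05, edgeR), Dbp 2.34 ± 0.55 (adjusted p = 0.0126) and Per3 1.79 ± 0.44 (adjusted p = 0.0174). Per2 was 1.31 ± 0.32 higher, Per1 1.16 ± 0.25, and Arntl lower at -2.55 ± 0.54 (adjusted p = 0.00412). Levels were separate for 8 of 10 members, all but Cry1 and Nr1d1, where 6.98% of all genes were separate. Dbp, for example, was at 179, 193, 185 and 129 CPM in MlklKO and at 15.0 to 61.5 CPM in WT (median 29.9). Leaving out MlklKO CD-LFD replicate 4 ended the calls of Per2 (0.77, adjusted p = 0.261) and Per3 (1.65, adjusted p = 0.0668), and Per3 was also lost without WT CD-LFD replicate 6 (adjusted p = 0.0525). Ripk3KO livers differed from WT for 3 of 10 members, against 1.1% of genes (0.794% higher and 0.31% lower). Arntl was lower at -3.09 ± 0.66 (adjusted p = 0.00762), Ciart 3.17 ± 0.65 higher (adjusted p = 0.00523) and Dbp 2.25 ± 0.59 higher (adjusted p = 0.0411). Dbp was at 130, 206 and 147 CPM and Ciart at 34.6, 54.8 and 21.9 CPM in Ripk3KO, and 6 of 10 members were separate where 7.89% of all genes were. With 3 Ripk3KO libraries these calls were less firm. The count was 0 without Ripk3KO CD-LFD replicate 2 (Arntl and Ciart both at an adjusted p of 0.0956) and 1 without replicate 3 (Arntl 0.0559), and Dbp was lost without any 1 library but WT CD-LFD replicate 4 (adjusted p 0.0583 to 0.242). Of the 8 hepatocyte and 8 macrophage markers, 1 hepatocyte marker was called in MlklKO and none of either in Ripk3KO. The hepatocyte markers summed to 123284 to 131678 CPM in MlklKO and 62577 to 107800 CPM in WT, without overlap. In Ripk3KO they summed to 74673 to 132072 CPM. The part of these cells was not tested.

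On CD-HFD no member was called in either knockout against WT. edgeR called 0 of 10 in Ripk3KO, where 0.377% of all genes were called (0.209% higher and 0.168% lower), and 0 of 10 in MlklKO, where 0% were. At an unadjusted p under 0.05 both counts were also 0, and DESeq2 called 0 in each. The differences ran from -0.89 to 0.67 in Ripk3KO and from -0.64 to 0.58 in MlklKO on the log2 scale. Arntl was -0.82 ± 0.54 and -0.33 ± 0.59, and Dbp 0.21 ± 0.55 and 0.23 ± 0.60. The libraries of all 10 members overlapped in both comparisons, where 5.36% (Ripk3KO) and 4.78% (MlklKO) of all genes were separate.

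The diet change itself differed between genotypes for 4 members. The interaction asks whether the change from control to a choline-deficient diet is the same in a knockout as in WT. For MlklKO and CD-LFD it was 3.61 ± 0.82 for Ciart (log2; adjusted p = 0.00471, edgeR), 2.27 ± 0.61 for Per3 (adjusted p = 0.0157), 1.54 ± 0.42 for Cry1 (adjusted p = 0.0173) and 1.49 ± 0.44 for Per2 (adjusted p = 0.0267), against 8.45% of all genes (4.37% higher and 4.08% lower). Dbp, at 2.25 ± 0.75, was at the threshold (adjusted p = 0.0502). Ciart changed by -1.80 in WT and 1.81 in MlklKO, and Cry1 by -0.81 and 0.73, the last not called on its own. Ciart was called without any 1 library, and its interaction was 2.79 without WT control replicate 2 (adjusted p = 0.0245). WT control replicates 2 and 4 held the high Ciart levels of that group, and they were not left out together. Cry1 was lost without MlklKO CD-LFD replicate 4 (1.04, adjusted p = 0.113), Per3 without WT control replicate 4 (adjusted p = 0.0586), and Per2 without WT control replicate 2 or 4, WT CD-LFD replicate 3, MlklKO control replicate 1 or MlklKO CD-LFD replicate 4 (adjusted p 0.0516 to 0.163, with 0.95 without the last). The count was 2 without WT control replicate 4 or MlklKO CD-LFD replicate 4. Of the cell markers in this interaction, 1 of 3 tested B and plasma cell markers (Cd79a, 2.58 ± 0.79, adjusted p = 0.0342) was called higher and 1 of 4 cholangiocyte markers (Epcam, -2.88 ± 0.74, adjusted p = 0.0114) lower, with 0 called in the other 6 lists, and their part was not tested. The other 3 interactions had 0 called members by edgeR. For MlklKO and CD-HFD (4.12% of genes called, 1.58% higher and 2.54% lower) 5 members had an unadjusted p under 0.05 and DESeq2 called 1. For Ripk3KO and CD-HFD (0.478%, with 0.135% higher and 0.343% lower) the numbers were 5 and 1, and for Ripk3KO and CD-LFD (0.0269%, with 0.00673% higher and 0.0202% lower) they were 2 and 0. Arntl was 2.32 ± 0.73 (adjusted p = 0.141) in the Ripk3KO and 1.95 ± 0.74 (adjusted p = 0.124) in the MlklKO interaction with CD-HFD. Without WT control replicate 4 or WT CD-HFD replicate 3 it was called in both. The Ripk3KO interaction with CD-HFD had 2 called members without WT control replicate 2 or 4 or WT CD-HFD replicate 3. The MlklKO interaction had 1 without WT control replicate 2 or 4 and 2 without WT CD-HFD replicate 3.

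Other regulators of the loop were counted from a list of 22 genes, of which 21 passed the filter and Rorb did not. WT livers on CD-HFD had 9 of 21 called, 2 higher and 7 lower, with a median log2 change of -0.23 against -0.07 over all genes. Of all genes 47.7% were called there, so the list is near the background. Bhlhe41, a repressor that competes for E-boxes, was higher by 1.84 ± 0.34, and Csnk1e, a kinase that marks PER proteins for degradation, by 1.22 ± 0.24. Prkaa2, a catalytic subunit of AMPK, fell by 1.20 ± 0.33 and Bhlhe40 by 1.12 ± 0.26. The repressor of D-boxes, Nfil3, fell in all 3 genotypes on CD-HFD, by 1.10 ± 0.27 in WT, 2.39 ± 0.32 in Ripk3KO and 2.52 ± 0.37 in MlklKO. The list had 7 of 21 called in Ripk3KO (1 higher) and 4 of 21 in MlklKO (1 higher), against 46.3% and 45.2% of all genes. It was at 18.8 to 52.3 CPM on control and 7.57 to 22.2 CPM on CD-HFD in WT. In MlklKO it was at 26.5 to 85.7 CPM on control and 14.1, 8.74 and 7.73 CPM on CD-HFD, without overlap. The difference between these falls was not called (interactions with CD-HFD, 0 of 21 listed regulators by edgeR for each knockout, with 3 and 6 at an unadjusted p under 0.05). On CD-LFD, 5 of 21 were called in WT (1 higher), 4 in Ripk3KO (2 higher) and 9 in MlklKO (4 higher), against 27.7%, 24.1% and 37.9% of all genes. In MlklKO on that diet Nfil3 fell by 1.43 ± 0.31. Tef, a close relative of Dbp, was higher than WT on CD-LFD in both knockouts, by 1.19 ± 0.31 in Ripk3KO (adjusted p = 0.0462) and 1.36 ± 0.29 in MlklKO (adjusted p = 0.00462). Bhlhe41 was higher too, by 1.63 ± 0.37 and 1.49 ± 0.34, and these 2 were the only listed regulators called there, 2 of 21 against 1.1% and 2.56% of all genes. Against WT on control, 1 of 21 was called in Ripk3KO (Bhlhe41, 1.19 ± 0.35) and 6 in MlklKO, 2 higher and 4 lower, with Fbxl21 at -1.30 ± 0.28 and Bhlhe41 at 1.30 ± 0.35. Of all genes 4.47% and 27.1% were called in these comparisons.

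Output genes of the liver clock were counted from a list of 20, all of which passed the filter. On CD-HFD against control, 6 of 20 were called in WT (3 higher), 5 in Ripk3KO (2 higher) and 8 in MlklKO (5 higher), below the 47.7%, 46.3% and 45.2% of all genes called there. The largest difference was that of Elovl3, a fatty acid elongase with a strong daily rhythm. It fell by 5.82 ± 0.57 in WT livers on CD-HFD (adjusted p = 3.86e-11), from 78.7 to 658 CPM on control (median 422) to 3.38 to 14.5 CPM, with no overlap. Its fall was 3.75 ± 0.62 in Ripk3KO and 5.08 ± 0.77 in MlklKO on the same diet. In WT control, the libraries with the least Elovl3, at 78.7 and 84.5 CPM, were replicates 2 and 4. Usp2, a deubiquitinase, and Por, the electron donor of cytochrome P450 enzymes, were low in the WT CD-LFD livers. Usp2 was at 3.35 to 12.5 CPM in WT CD-LFD, at 73.1, 119 and 62.7 CPM in Ripk3KO and at 77.2, 93.9, 64.8 and 157 CPM in MlklKO on that diet. Its differences from WT were 3.52 ± 0.68 and 3.73 ± 0.66, and those of Por were 2.34 ± 0.35 and 2.36 ± 0.33. In all, 4 of 20 output genes were called on CD-LFD in Ripk3KO against WT and 5 of 20 in MlklKO, against 1.1% and 2.56% of all genes. All of them were higher, with Gys2, the liver glycogen synthase, and Coq10b in both. On CD-HFD, 0 of 20 were called in either knockout against WT by edgeR (4 and 2 at an unadjusted p under 0.05). Pdk4, which restrains glucose oxidation, rose on CD-LFD in each genotype, by 1.72 ± 0.37 in WT (9 of 20 called, 2 higher), 3.11 ± 0.45 in Ripk3KO (1 of 20) and 1.75 ± 0.42 in MlklKO (8 of 20, 7 higher). Of all genes 27.7%, 24.1% and 37.9% were called there. For the interaction of MlklKO and CD-LFD, 8 of 20 were called, 7 higher, against 8.45% of all genes, led by Usp2 at 4.84 ± 0.87. These lists were drawn up with earlier results of the same libraries known.

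**Figure D5:**
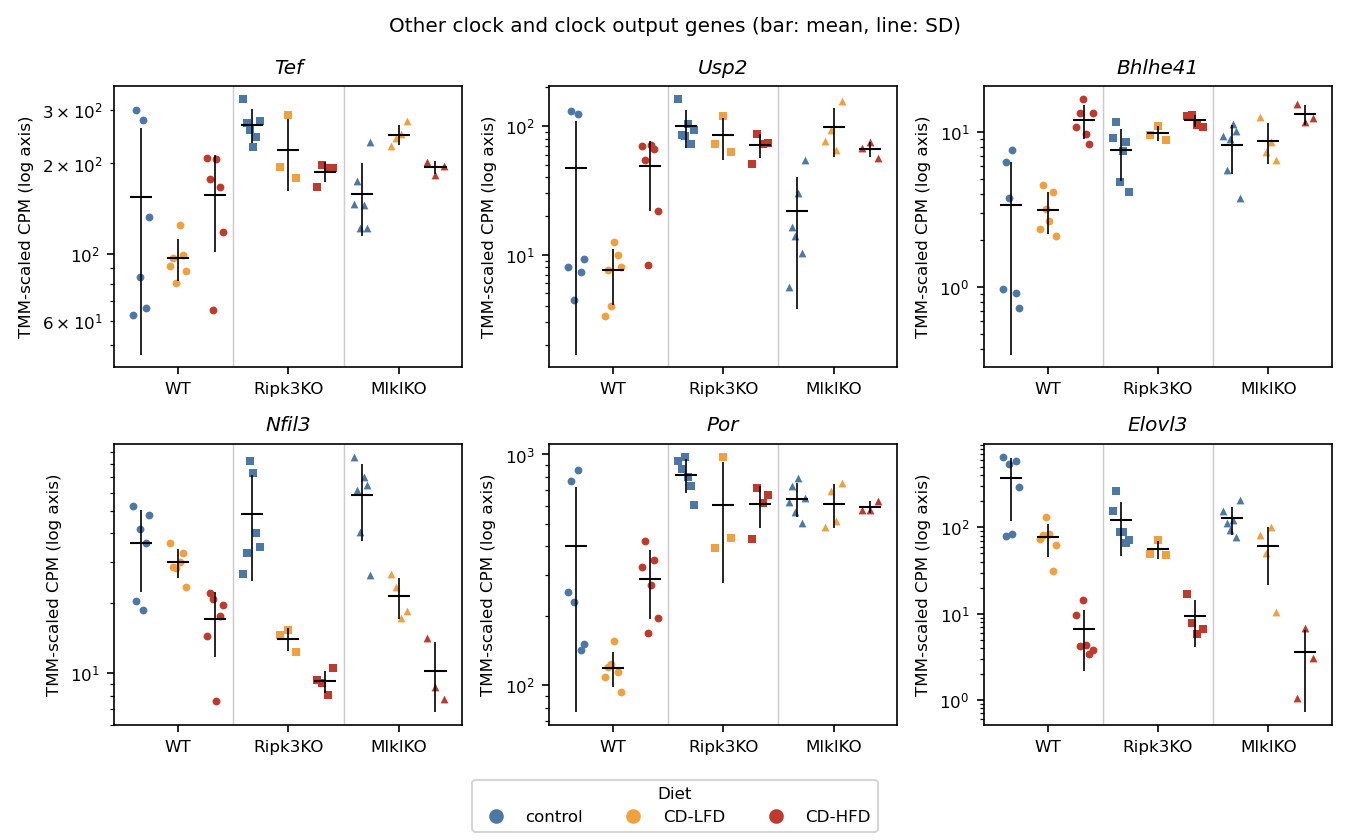
TMM-scaled CPM (log axis) of 3 other regulators (Tef, Bhlhe41, Nfil3) and 3 output genes (Usp2, Por, Elovl3) by genotype and diet, 1 point per library, with the mean as a bar and 1 SD as a line; the 6 genes were chosen after their values were seen. Usp2 and Por are low in WT CD-LFD (3.35 to 12.5 and 93.5 to 155 CPM), while Nfil3 and Elovl3 are lowest on CD-HFD in every genotype.

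Genes that varied with Arntl and Dbp from library to library were ranked by Pearson's r of deviations from the group means over the 44 libraries, as a description in which the split WT groups weigh most. With Arntl, the highest non-members were St5 (r = 0.83), Spon2 (0.82), Rab36 (0.79), Zfp385a (0.79) and Gas7 (0.78), and the lowest Ncl (-0.79), Tef (-0.76), Ccdc85b (-0.74), Ccne1 (-0.73) and Rnf145 (-0.73). With Dbp, the highest were Tef (0.89), Usp2 (0.84), Slc5a6 (0.82), Gne (0.79) and Cry2 (0.78), and the lowest Rfxank (-0.82), Avpr1a (-0.77), Chka (-0.76), Stra6l (-0.75) and Dtx4 (-0.75). The median absolute r over the 11060 genes ranked was 0.19 for each. In the 32 libraries of the 7 groups that the gap in Arntl does not split, every one of these r values was nearer to 0. With Arntl they were 0.50 for St5, 0.59 for Spon2, 0.34 for Rab36, 0.34 for Zfp385a and 0.57 for Gas7, and between -0.53 (Rnf145) and -0.20 (Tef) for the lowest. With Dbp they were 0.64 for Tef, 0.64 for Usp2, 0.43 for Slc5a6, 0.60 for Gne and 0.51 for Cry2, and between -0.60 (Rfxank) and -0.13 (Dtx4) for the lowest. Among the members themselves, Per3 (0.91) and Ciart (0.87) were closest to Dbp and Npas2 (0.83) to Arntl. In the same 7 groups, r with Dbp was 0.68 for Per3, 0.63 for Ciart and 0.58 for Nr1d1, the last from 0.12 over all 44 libraries. The r of Arntl with Dbp went from -0.70 to 0.20, with Ciart from -0.72 to 0.05, with Per3 from -0.77 to -0.04 and with Clock from 0.65 to -0.02. With Npas2 it went from 0.83 to 0.71 and with Nr1d1 from 0.43 to 0.53.

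Within single groups of 6 libraries that were not split (WT CD-LFD, Ripk3KO control and MlklKO control), 27 relations of Arntl with the other members were tested by two-sided exact permutation. None had an adjusted p under 0.05 and 5 had an unadjusted p under 0.05; 6 libraries cannot give a p below 0.00278 by these tests. In WT CD-LFD, Npas2 had r = 0.86 with Arntl (exact p = 0.00556, adjusted p = 0.15; rho = 0.83, exact p = 0.0583) and 0.91 without the 2 libraries farthest from the median of Arntl. Clock had r = 0.93 there (exact p = 0.0264, adjusted p = 0.238; rho = 0.71, exact p = 0.136), and 0.55 without those 2, so that it rests on them. The largest negative r in WT CD-LFD were -0.84 for Per1 (exact p = 0.0833), -0.82 for Ciart (0.0583), -0.75 for Per2 (0.0986) and -0.70 for Per3 (0.108). Their adjusted p were 0.2625 to 0.29. Without the 2 farthest libraries they were -0.35, -0.38, -0.04 and -0.97. In MlklKO control, Npas2 had r = 0.89 (exact p = 0.0208, adjusted p = 0.238; rho = 1.0, exact p = 0.00278), Per2 0.83 (exact p = 0.0375, adjusted p = 0.253; rho = 0.83, exact p = 0.0583) and Per3 0.82 (exact p = 0.0472, adjusted p = 0.255; rho = 0.83, exact p = 0.0583). Without the 2 farthest libraries these 3 were 0.99, 0.89 and 0.87. Ciart and Dbp also had positive r there, at 0.75 (exact p = 0.0889, adjusted p = 0.29; rho = 0.66, exact p = 0.175) and 0.71 (exact p = 0.118, adjusted p = 0.29; rho = 0.37, exact p = 0.497), and 0.91 and 0.55 without those 2.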

How the data were processed

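The authors deposited raw read counts per Ensembl gene, 1 column for each of 44 libraries; the submitters' processing notes name FastQC, STAR, HTSeq, edgeR and limma and the build GRCm39 (mm39), with no versions or settings, and per the labels' protocols the library kit was directional. Whether counting used strand is not given in the sources used here; Nr1d1 overlaps Thra on the opposite strand at its 3′ end, so its counts are uncertain to that extent. From 25 mg of liver, 500 ng of RNA was sequenced, per the labels. Of 35249 genes, 34373 matched a symbol.

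Genes were kept by filterByExpr (minimum count 10), libraries scaled by TMM (factors 0.799 to 1.34), and 19 comparisons (15 pairwise, 4 interactions) tested by the edgeR 4.0.16 quasi-likelihood test in R 4.3.3, with 9 group means over all 44 libraries. P-values were adjusted by Benjamini-Hochberg over 14862 genes, and genes under 0.05 are called; SE is the log2 change over the square root of F. Log2 CPM used a prior count of 2. Lengths per kilobase are exon unions of GENCODE M21. Alternatives were RLE factors, library size, no filter, only the compared groups, a robust fit, DESeq2 1.42.0, the replicate number as a block, leaving out libraries, and, added after seeing the data, likeness in 7 groups. The tests were checked on simulated data. No 2 libraries of a group were duplicates (chi-square per degree of freedom 6.59 or more). Members and lists were chosen with earlier results of these data known. The naming rule was every member, with test values where it was called (values of members that missed the threshold were added after they were seen); in each list up to 4 called genes with the largest change per comparison, with Nfil3, Tef, Usp2, Por, Gys2, Coq10b and Pdk4 also followed across comparisons after their values were seen; and the 5 highest and 5 lowest in likeness. Some items are not reported here.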

Additional observations from a re-analysis of the deposited data

Results flagged for a closer look

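Among 70 sets of 1 member in 1 group of 4 or more libraries (7 groups), 4 held a library whose gap to the others was wide for the group's range. Chance alone flags about 1 set in 20, so that 4 of 70 is near chance. Dbp in WT CD-HFD replicate 3 was at 40.7 CPM, against 106 to 150 CPM in the other 5. This is the library whose Arntl (9.16 CPM) was in the upper set. Dbp in Ripk3KO CD-HFD replicate 5 was at 116 CPM, against 137 to 139 CPM. Per2 in MlklKO CD-LFD replicate 4 was at 217 CPM, against 70.4 to 81.0 CPM, and Npas2 in the same library at 0.149 CPM (1 read), against 1.04 to 1.36 CPM. That library also had the lowest Nr1d1 of all 44.

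The change from control to CD-LFD differed between MlklKO and WT for 4 members by the interaction term of the edgeR fit, by 1.49 for Per2, 2.27 for Per3, 1.54 for Cry1 and 3.61 for Ciart on the log2 scale. Ciart was called without any 1 library, with an adjusted p of at most 0.0245, and the libraries without which Per2, Per3 or Cry1 was lost are named with the interactions above. WT control replicates 2 and 4, which held the high Ciart levels of that group, were not left out together.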

How the results depend on the processing

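Of 875 alternative values of the 45 called member differences, 762 kept their direction and call, 113 kept the direction but missed the threshold (80 of them without 1 library) and 0 reversed. Of 388 alternative values of 20 counts, 330 stayed within 1.5 times. Counts of called members that moved were as follows. For WT CD-HFD against control, 5 became 8 with library size alone. For WT CD-LFD against control, 2 became 1 with no count filter and 0 with only the compared groups. For Ripk3KO CD-HFD against control, 4 became 2 with RLE factors, library size, only the compared groups or DESeq2, and for Ripk3KO CD-LFD 1 became 0 with library size. For MlklKO CD-HFD against control, 2 became 1 with RLE factors, DESeq2 or without Ripk3KO control replicate 5 and MlklKO CD-HFD replicate 1, and 4 with library size or only the compared groups. Clock was not called in any of these settings. For MlklKO CD-HFD against CD-LFD, 0 became 2 with only the compared groups. For Ripk3KO against WT, 3 became 5 with DESeq2 and 1 with only the compared groups on control, and 5 with only the compared groups on CD-LFD. For the interactions, Ripk3KO and CD-HFD went from 0 to 1 with DESeq2, MlklKO and CD-HFD from 0 to 1 with library size, DESeq2 or without WT control replicates 5 and 6, and MlklKO and CD-LFD from 4 to 2 with only the compared groups. The causes of these moves were not tested.

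Without 1 library at a time, the counts ranged from 4 to 8 (WT CD-HFD against control), 1 to 3 (WT CD-LFD), 2 to 4 (Ripk3KO CD-HFD), 0 to 1 (Ripk3KO CD-LFD), 1 to 3 (MlklKO CD-HFD), 3 to 5 (MlklKO CD-LFD), 3 to 8 (WT CD-HFD against CD-LFD), 3 to 7 and 4 to 6 (Ripk3KO and MlklKO against WT on control), 0 to 3 and 4 to 6 (on CD-LFD), 0 to 2 (each interaction with CD-HFD) and 2 to 5 (MlklKO and CD-LFD). They stayed at 0 for both knockouts against WT on CD-HFD, for CD-HFD against CD-LFD in both knockouts and for the interaction of Ripk3KO and CD-LFD. The library of 88204703 counts, WT CD-LFD replicate 3, is among those left out.

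Replicate numbers did not pair the libraries, since in no comparison was every correlation of same-numbered libraries over 0.1. With the replicate block, members called in Ripk3KO against WT on control went from 3 to 5 and for the interaction of MlklKO and CD-HFD from 0 to 2. In MlklKO CD-HFD against control the count stayed at 2 but the members changed, since Clock (adjusted p = 0.0697) and Per3 (0.0684) were not called and Npas2 (higher) and Nr1d1 (lower) were. Per2 was not called in the interaction of MlklKO and CD-LFD.

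With library size alone the median log2 change of all genes moved most, from -0.05 to 0.49, in Ripk3KO CD-HFD against control. Of 80 alternative values of r for the 20 genes named by likeness, 41 stayed within the 95% interval of the reported r and 0 changed sign. Depth limits Arntl and Npas2, with medians of 8 to 73 and 0 to 28 reads per group, and also Ciart, which had 3 to 16 reads in 4 of the 6 WT control libraries. In the interaction of MlklKO and CD-LFD, Per2 and Per3 were not called with only the compared groups, nor Per2 with library size alone. Library size alone also ended the call of Clock in WT CD-HFD against CD-LFD, and library size alone or a robust fit that of Dbp in Ripk3KO against WT on CD-LFD.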
